A study of Rattus norvegicus with 6 samples.

Results

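The MYC network was examined as 9 rat genes, Myc, Mycn, Max, Mxd1, Mxd3, Mxd4, Mxi1, Mnt and Mlx, taken by gene name from a table of counts for 34156 genes. All 9 were found in the table, and 8 of them had enough counts to test, at least 10 in at least 3 libraries. RNA-seq was run on fibroblast-like synoviocytes (RA-FLS), the resident fibroblasts of the joint lining, from rat and described in the labels as wild type (WT) with rheumatoid arthritis as the disease state. The TNF-α group (n = 3) received 10 ng/mL of the cytokine TNF-α, and the TNF-α+EMO group (n = 3) received 10 ng/mL TNF-α together with 80 μmol/L emodin (EMO), an anthraquinone found in rhubarb. TNF-α was therefore present in both groups, no library of untreated cells was analysed, and the comparison is of EMO on top of TNF-α. The labels give day 5 as the time, which is longer than the incubation stated in the methods of the study. The cells came from a supplier, and the methods call the 3 libraries of a group biological replicates without saying what was repeated, so the p-values measure the spread between these libraries only.

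MYC is a basic helix-loop-helix leucine zipper transcription factor that binds DNA only as a dimer with MAX, mostly at E-box sites, and activates genes of cell growth, ribosome production, metabolism and the cell cycle. MAX also pairs with the MXD proteins (MXD1, MXI1, MXD3 and MXD4), with MNT and with MGA, which occupy the same kind of site. The MXD and MNT proteins recruit SIN3-HDAC corepressors, and they compete with MYC for their common partner, while MGA is part of a polycomb-type repressor complex. MLX is a MAX-like protein that pairs with the glucose-sensing MONDO proteins, such as MondoA encoded by Mlxip, and with some MXD proteins and MNT. In fibroblasts MYC is known as an early growth response gene, and MXD genes are known for their expression in cells that leave the cycle.

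The libraries held 16813322 to 17794455 counts. In a comparison of all 13614 tested genes by edgeR's quasi-likelihood test, 80.9% had an adjusted p under 0.05, 39.4% higher with EMO and 41.4% lower, and in 82.9% the normalized counts of the groups did not overlap. Against this background a call on a single gene was common. The fibroblast markers themselves differed between the groups. The summed level of the 16 markers analysed was 17108 to 18906 CPM (counts scaled to library size) with TNF-α and 2186 to 2338 with TNF-α+EMO. Thy1, Pdpn, Prg4, Fap and Lum were at 0 in all TNF-α+EMO libraries, while none of the 16 was at 0 in all TNF-α libraries. Of these, Thy1 (7, 6 and 3 counts), Pdpn (1, 0 and 0) and Prg4 (4, 3 and 4) were near 0 with TNF-α too. Fap had 27, 42 and 27 counts with TNF-α, and Lum had 235, 263 and 244. Of the 13 fibroblast markers tested, 11 fell and 2 rose, Cd55 from a mean of 153 to 757 normalized counts (log2 change 2.31, edgeR adjusted p = 3.6e-08) and Dcn from 1.62 to 28.4 (edgeR adjusted p = 0.0001). Markers of other cell types also shifted. Of the 7 macrophage markers, Cd68 and Cd14 had at least 10 counts in every library, with a sum over the list of 70.0 to 76.0 CPM with TNF-α and 42.7 to 46.8 with TNF-α+EMO, and Cd163 was at 0 throughout. These markers went opposite ways, since Cd68 rose (log2 change 0.75, edgeR adjusted p = 0.00024) and Cd14 fell (log2 change -1.10, edgeR adjusted p = 4.4e-07). The sums were 4.03 to 4.45 and 0.771 to 1.26 for the 4 endothelial markers, 579 to 629 and 116 to 136 for the 7 epithelial markers, of which Krt8 and, with EMO, Cldn4 had at least 10 counts in every library of a group, and 27.4 to 32.7 and 0.536 to 0.600 for the 5 chondrocyte markers, of which Sox9 reached 10 counts with TNF-α alone. Of the epithelial markers, Krt8 fell (log2 change -2.28, edgeR adjusted p = 2.5e-10). Cldn4 rose from 0 counts in every TNF-α library to a mean of 20.8 normalized counts with TNF-α+EMO (edgeR adjusted p = 6.4e-05). Mitochondrially encoded genes held 3.35% to 3.58% of counts with TNF-α and 0.363% to 0.399% with TNF-α+EMO. The part of these shifts in the differences of the MYC network genes was not tested.

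Within the network, Max, Mlx, Mxd3 and Mnt rose with EMO, Myc fell, and Mxd1, Mxd4 and Mxi1 did not pass the test. Of the 8 members tested, 5 were called at an adjusted p under 0.05, 4 higher and 1 lower, which is a smaller share than the 80.9% of all genes. The rise was over 2-fold (absolute log2 fold change over 1) in Max, Mlx and Mxd3, against 19.5% of all genes called higher by that margin. None of the members fell by as much, against 27.8% of all genes. Mxd3 lay at the margin, with a log2 fold change of 1.01, and 0.88 to 1.14 over the alternatives in processing. The 5 called members were also the 5 of 8 whose groups did not overlap, a smaller share than the 82.9% of all genes. The median log2 fold change of the members was 0.45, and that of all genes tested was -0.010. In bulk RNA, fewer cells with a transcript and less of it per cell cannot be told apart.

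**Figure D1:**
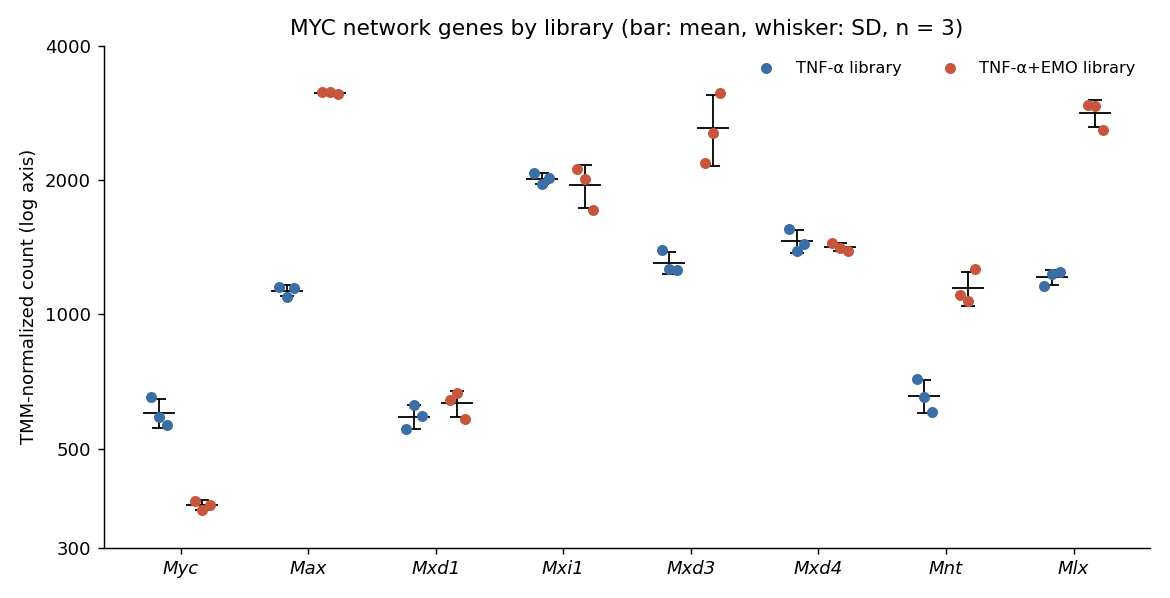
Normalized counts of the 8 tested members in each library, on a log axis, with the mean and the SD of 3 libraries per group. The TNF-α+EMO libraries lie above the TNF-α libraries for Max, Mxd3, Mnt and Mlx and below them for Myc, and the groups overlap for Mxd1, Mxi1 and Mxd4.

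Myc (ENSRNOG00000004500, chromosome 7, 102586313 to 102591240 on the plus strand of Rnor_6.0), the activator at the head of the network, was the only member called lower. It had 665, 604 and 579 counts with TNF-α and 371, 356 and 367 with TNF-α+EMO. After scaling of the libraries by TMM, these were 652, 589 and 564 against 383, 364 and 374 normalized counts, so every TNF-α+EMO library lay below every TNF-α library. The group means were 602 ± 45.5 and 374 ± 9.19 normalized counts (SD, n = 3 each), 1.61-fold lower with EMO, with a log2 change of -0.69 (SE, the standard error, 0.088, edgeR adjusted p = 2.5e-05). This change did not reach 2-fold.

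Mycn (chromosome 6, 38222555 to 38228379), the paralog best known from embryonic and neural tissue, had 0 counts in all 6 libraries. The limit that a count of 0 allows is 3 counts per library, or 0.170 to 0.180 CPM, for counting error only. Mycl (chromosome 5, 140692779 to 140698609), the remaining MYC paralog and not a member of the list, was low but detected with TNF-α, at 131, 112 and 133 counts, and had 1, 1 and 12 counts with TNF-α+EMO. Its log2 fold change was -4.64 (SE 0.61, edgeR adjusted p = 9.6e-05). A single library carried most of the remaining counts, and without TNF-α+EMO replicate 3 the log2 fold change of Mycl was -6.71. Both detected MYC genes were thus lower in the TNF-α+EMO group.

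Max (chromosome 6, 99984260 to 100011388 on the minus strand), the obligate partner of MYC, MXD and MNT, rose most among the members. It had 1176, 1121 and 1175 counts with TNF-α and 3059, 3076 and 3061 with TNF-α+EMO. The means were 1130 ± 32.6 and 3140 ± 19.6 normalized counts, 2.78-fold higher with EMO (log2 fold change 1.47, SE 0.058, edgeR adjusted p = 1.3e-09). Max also varied least between the TNF-α+EMO libraries, with a coefficient of variation of 0.625%. Counting error alone gives a larger spread at these counts, so this low value is not read as a trait of Max. Its level per kilobase of gene moved from the 78.4th to the 90.9th percentile of the tested genes.

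Mlx (chromosome 10, 88997399 to 89002152 on the plus strand), the MAX-like partner of the MONDO proteins, rose alongside. Its counts were 1182, 1264 and 1280 with TNF-α and 2854, 2862 and 2549 with TNF-α+EMO, without overlap. The means were 1213 ± 47.0 and 2823 ± 196 normalized counts, 2.33-fold higher with EMO (log2 fold change 1.22, SE 0.070, edgeR adjusted p = 2.9e-08). Its span overlaps by 37 bases with Psmc3ip on the other strand, which had 428, 459 and 413 counts with TNF-α and 1043, 1176 and 1242 with TNF-α+EMO. The strand setting of the counting is not given in the sources used here, so reads of the 2 genes in that stretch could not be told apart. Mlxip (chromosome 12, 38567247 to 38638536), which encodes the MLX partner MondoA, went the other way. It fell from 732, 715 and 637 counts to 241, 228 and 188, a log2 change of -1.60 (SE 0.11, edgeR adjusted p = 1.7e-07). Per length, the level of Mlx was 4.21 ± 0.466 times that of Mlxip with TNF-α and 29.6 ± 2.02 times with TNF-α+EMO.

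The 4 MXD genes, whose products pair with MAX and repress, did not move together. Mxd3 (chromosome 17, 9830332 to 9839452), which unlike its relatives is known from cycling cells, had 1419, 1299 and 1292 counts with TNF-α and 2121, 2492 and 3075 with TNF-α+EMO. The means were 1306 ± 74.7 and 2623 ± 477 normalized counts, 2.01-fold higher with EMO (log2 fold change 1.01, SE 0.12, edgeR adjusted p = 3.5e-05). The TNF-α+EMO libraries were spread more widely for Mxd3 than for the other tested members, with a coefficient of variation of 18.2%. The gene model of Mxd3 spans the whole of Prelid1 on the opposite strand, a gene listed with 0 counts in every library, so the values of Mxd3 are less certain.

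The other 3 MXD genes did not pass the test, and their groups overlapped in normalized counts, though not in raw counts for Mxd4. Mxd1 (chromosome 4, 118449882 to 118472179), a differentiation-associated antagonist of MYC, had 564, 642 and 607 counts with TNF-α and 625, 651 and 573 with TNF-α+EMO. Its log2 fold change was 0.097, with a 95% interval (normal approximation) from -0.073 to 0.27 and an adjusted p of 0.32 by edgeR. Mxi1 (chromosome 1, 274030978 to 274090071), also named MXD2, had 2112, 2009 and 2072 counts with TNF-α and 2056, 1964 and 1681 with TNF-α+EMO, and the TNF-α+EMO replicate 3 library was the lowest of the 6. Its log2 fold change was -0.050, with an interval from -0.21 to 0.11 (edgeR adjusted p = 0.58). Mxd4 (chromosome 14, 81819415 to 81833456) had 1581, 1422 and 1480 counts with TNF-α and 1400, 1380 and 1361 with TNF-α+EMO, with a log2 change of -0.046, an interval from -0.17 to 0.083 and an adjusted p of 0.53 by edgeR. With the libraries scaled by their totals alone, Mxd4 was called lower (log2 change -0.16, edgeR adjusted p = 0.048) and Mxd1 turned to -0.016, while the median of all genes was -0.12.

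Mnt (chromosome 10, 61685241 to 61700491), a repressor that is known to be expressed in most cells and to oppose MYC, rose with EMO. It had 729, 670 and 621 counts with TNF-α and 1070, 1050 and 1239 with TNF-α+EMO. The means were 658 ± 55.2 and 1147 ± 101 normalized counts, 1.74-fold higher with EMO (log2 fold change 0.80, SE 0.092, edgeR adjusted p = 1.0e-05). Mga (chromosome 3, 111699021 to 111759911), the largest MAX partner and not a member of the list, had 518, 512 and 444 counts with TNF-α and 511, 431 and 350 with TNF-α+EMO, and its log2 change of -0.12 (SE 0.14, edgeR adjusted p = 0.42) did not pass the test.

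**Figure D2:**
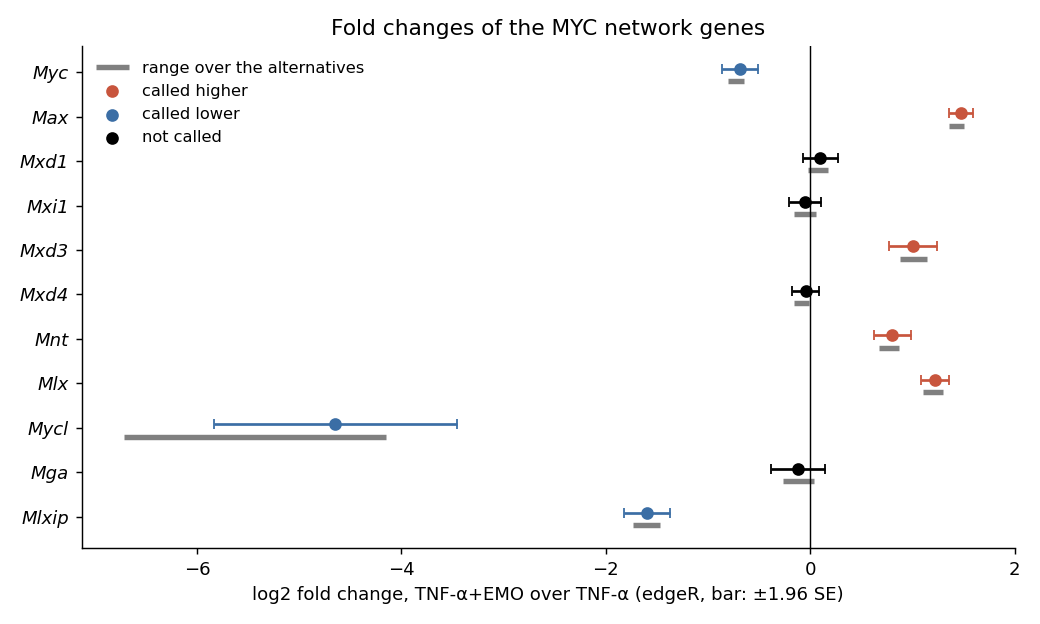
Log2 fold changes of the tested members and of Mycl, Mga and Mlxip with bars for the 95% interval, and in grey the lowest to highest value over the alternatives in processing. Max, Mlx, Mxd3 and Mnt lie to the right of 0, Myc, Mycl and Mlxip lie to the left, and the intervals of Mxd1, Mxi1, Mxd4 and Mga include 0.

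The TNF-α+EMO replicate 3 library lay at the edge of its group for most of these genes. It was the highest of the TNF-α+EMO libraries for Mxd3, Mnt and Mycl and the lowest for Max, Mxd1, Mxd4, Mxi1, Mlx, Mga and Mlxip. Without this library, the calls at an adjusted p under 0.05 were again 4 members higher and 1 lower.

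Sequence upstream of the genes was read from the RefSeq promoter table (GRCr8), which holds 7 of the 9 members, Max, Mxd1, Mxd3, Mxd4, Mxi1, Mnt and Mlx. Each entry covers 250 bases before and 50 bases after the gene start. The palindromic E-box CACGTG, the site preferred by dimers of MAX and of MLX, was searched on both strands, which read alike. It occurred once each in the promoters of Max, Mxd4, Mnt and Mlx, which is 4 of 7, and in 6.42% of all 33469 promoters of the table. Its first base lay 33 bases before the start of Max, 70 before Mlx, 123 before Mnt and 197 before Mxd4. These 4 promoters are shown as the ones that hold the E-box. Of them, 3 belong to members that rose, and Mxd4 did not pass the test. Myc, the only member called lower, was not among the 7, so no falling member could be compared. The E-box is in capitals, and the strand of the gene is read 5′ to 3′. Max is at chr6:101395241-101395540 (minus strand), Mlx at chr10:86519636-86519935 (plus strand), Mnt at chr10:60197709-60198008 (plus strand) and Mxd4 at chr14:80786531-80786830 (plus strand).
Max: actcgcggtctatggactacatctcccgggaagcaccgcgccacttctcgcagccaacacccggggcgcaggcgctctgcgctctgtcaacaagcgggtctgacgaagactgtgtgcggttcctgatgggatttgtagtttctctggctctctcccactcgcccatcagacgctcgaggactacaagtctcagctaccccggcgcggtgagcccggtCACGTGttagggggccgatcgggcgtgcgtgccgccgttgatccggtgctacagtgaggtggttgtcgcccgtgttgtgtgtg
Mlx: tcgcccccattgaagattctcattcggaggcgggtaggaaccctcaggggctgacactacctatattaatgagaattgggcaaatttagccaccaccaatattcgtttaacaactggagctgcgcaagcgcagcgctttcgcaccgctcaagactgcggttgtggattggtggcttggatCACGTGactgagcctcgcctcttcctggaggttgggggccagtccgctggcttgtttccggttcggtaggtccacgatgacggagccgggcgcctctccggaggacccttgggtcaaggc
Mnt: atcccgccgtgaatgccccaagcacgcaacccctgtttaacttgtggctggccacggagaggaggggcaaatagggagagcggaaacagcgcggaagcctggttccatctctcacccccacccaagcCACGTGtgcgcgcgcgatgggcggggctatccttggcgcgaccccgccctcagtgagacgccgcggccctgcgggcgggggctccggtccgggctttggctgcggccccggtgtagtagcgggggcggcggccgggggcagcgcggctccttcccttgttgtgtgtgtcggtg
Mxd4: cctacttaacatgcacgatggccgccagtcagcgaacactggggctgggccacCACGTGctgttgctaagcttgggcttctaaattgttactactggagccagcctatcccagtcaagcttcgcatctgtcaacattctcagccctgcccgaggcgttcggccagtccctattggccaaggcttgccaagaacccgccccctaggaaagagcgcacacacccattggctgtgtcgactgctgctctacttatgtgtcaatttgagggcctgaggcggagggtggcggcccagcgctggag

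The looser E-box letters CANNTG, which include CACGTG, were present in 5 of the 7 promoters and in 72.1% of all promoters in the table. Neither motif occurred in the windows of Mxd1 and Mxd3. The G and C content of the 7 windows ran from 57.7% in Mlx to 75.7% in Mxi1, and the median of all promoters was 51.7%. The motif shares of all promoters were not matched for this content. Thus Mxd3 rose without the CACGTG letters in its window, and Mxd4 had them and did not pass the test. A match in these letters is a description of the sequence and not of binding, which was not measured.

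Levels of different genes were compared per kilobase of the deposited gene length after scaling for library size, in scaled counts per kilobase on the CPM scale. With TNF-α, the order was Mxi1 (39.8 ± 1.11, SD, n = 3), Mlx (36.6 ± 1.42), Max (33.1 ± 0.954), Mxd4 (20.9 ± 1.20), Myc (13.0 ± 0.984), Mxd3 (12.7 ± 0.727), Mnt (8.39 ± 0.703), Mxd1 (7.58 ± 0.468) and Mycn at 0. The libraries of Myc and Mxd3 overlapped in level, as did those of Mnt and Mxd1, and the other neighbours did not. With TNF-α+EMO, Max (91.9 ± 0.574) and Mlx (85.2 ± 5.92) stood above Mxi1 (38.5 ± 4.17), followed by Mxd3 (25.5 ± 4.64), Mxd4 (20.3 ± 0.414), Mnt (14.6 ± 1.29), Mxd1 (8.11 ± 0.549) and Myc (8.08 ± 0.199). Only Mxd1 and Myc overlapped among these neighbours. Myc, above Mxd3, Mnt and Mxd1 in mean level with TNF-α, thus had the lowest mean of the detected members with TNF-α+EMO. The deposited length counts the whole gene model, 5981 bases for Mxd3 and 1929 for Mlx, so the level of a gene that uses a shorter transcript is understated. The level of Mxd3 is also less certain because its gene model spans Prelid1.

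Set against each other per length, the mRNAs of the MAX partners shifted from MYC genes towards Mxd3 and Mnt. The values of Mxd3, and the sums that include it, are less certain here too, since its gene model spans Prelid1. Myc made up 12.5%, 12.1% and 11.6% of the summed level of Myc, Mycn, Mycl, the 4 MXD genes, Mnt and Mga with TNF-α, and 7.03%, 6.70% and 6.83% with TNF-α+EMO. The share of Mxd3 was 11.8% ± 0.214 with TNF-α and 21.6% ± 3.88 with TNF-α+EMO, that of Mnt 7.77% ± 0.409 and 12.4% ± 1.05, and that of Mxi1 37.0% ± 0.755 and 32.6% ± 3.62. Mycl held 2.25% ± 0.188 with TNF-α and 0.0797% ± 0.108 with TNF-α+EMO. The summed level of the MXD genes and Mnt was 5.80 ± 0.199 times that of the MYC genes with TNF-α and 13.1 ± 0.396 times with TNF-α+EMO. The sum over all partners was 108 ± 4.23 and 118 ± 0.345, so the level of Max relative to it went from 0.307 ± 0.00933 to 0.779 ± 0.00701. Relative to Myc alone, Max stood at 2.55 ± 0.180 times with TNF-α and 11.4 ± 0.279 times with TNF-α+EMO. These are ratios of mRNA within a library, given as descriptions with no test, and protein was not measured here.

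**Figure D3:**
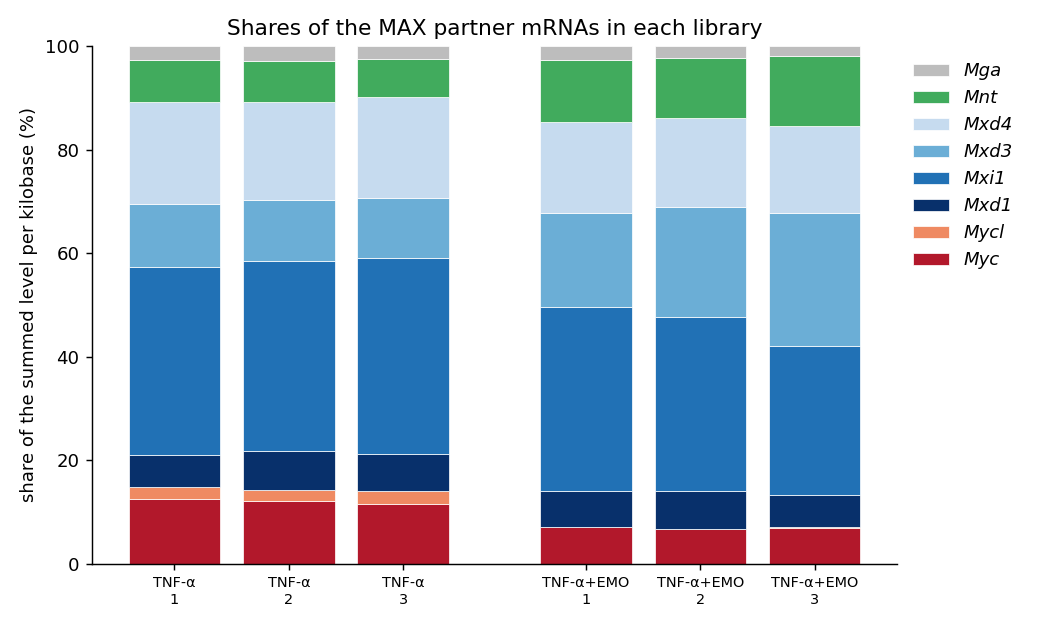
Share of each MAX partner in the summed level per kilobase, in percent, for each of the 6 libraries (Mycn is at 0). Myc holds 11.6% to 12.5% of the sum with TNF-α and 6.70% to 7.03% with TNF-α+EMO, and the bands of Mxd3 and Mnt are wider with TNF-α+EMO.

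Genes that MYC is known to induce, a list of 48, were mostly higher in the TNF-α+EMO group, while Myc itself was lower. Of the 48 tested, 33 rose and 10 fell at an adjusted p under 0.05, or 89.6% called against 80.9% of all genes, with a median log2 change of 0.57 against -0.010 over all genes. Shmt2 and Mthfd2, enzymes of mitochondrial one-carbon metabolism, rose by a log2 change of 2.32 (SE 0.079) and 1.89 (SE 0.063). Odc1, the rate-limiting enzyme of polyamine synthesis, had 2963, 3046 and 3395 normalized counts with TNF-α and 10956, 11198 and 10873 with TNF-α+EMO, a log2 change of 1.81 (SE 0.066, edgeR adjusted p = 7.1e-10). The nucleolar proteins Npm1 and Ncl rose by 1.56 and 1.32, and Cdk4, a G1 kinase, by 0.36 (edgeR adjusted p = 0.00026). The largest decreases under the naming rule were in E2f2, an E2F factor of S phase entry, at -2.71, the replication helicase subunit Mcm4 at -2.49, and lactate dehydrogenase Ldha at -1.75. Cad, the enzyme of the first steps of pyrimidine synthesis, had 1403 ± 59.4 and 1399 ± 41.1 normalized counts and did not pass the test (log2 fold change -0.0046, edgeR adjusted p = 0.95). Ccnd2, a D-type cyclin, had at most 1 count in the TNF-α libraries and a mean of 23.3 normalized counts with TNF-α+EMO, at least 7.94-fold higher against a floor of 3 counts per library.

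Of the genes that MYC is known to repress, 9 were tested, 3 rose and 6 fell, against 39.4% and 41.4% of all genes, with a median log2 change of -1.17. The p53-responsive growth arrest genes Cdkn1a and Gadd45a rose by 3.81 (SE 0.11) and 5.62 (SE 0.13), and Ndrg1, a stress-responsive gene named for its repression by N-myc, rose by 1.66 (SE 0.067). The 3 largest decreases were in Thbs1 and Ccn2, matricellular proteins, at -8.10 and -7.41, and in Pdgfrb, a growth factor receptor of fibroblasts, at -4.45. Pdgfrb is also among the fibroblast markers whose summed level was lower in the TNF-α+EMO group.

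Targets of the MLX-MONDO dimers were few. Of the 3 tested, Txnip, a glucose-responsive inhibitor of thioredoxin and glucose uptake, fell from 2746 ± 74.4 to 401 ± 23.7 normalized counts (log2 fold change -2.77, SE 0.071, edgeR adjusted p = 5.3e-11), and Arrdc4, a paralogous arrestin, rose from 238 ± 25.5 to 348 ± 43.2 (log2 fold change 0.55, SE 0.13, edgeR adjusted p = 0.0021). Klf10, a zinc finger repressor outside the naming rule, did not pass the test (log2 fold change -0.12, edgeR adjusted p = 0.39). Thus 2 of the 3 were called, in opposite directions, or 66.7% against 80.9% of all genes.

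**Figure D4:**
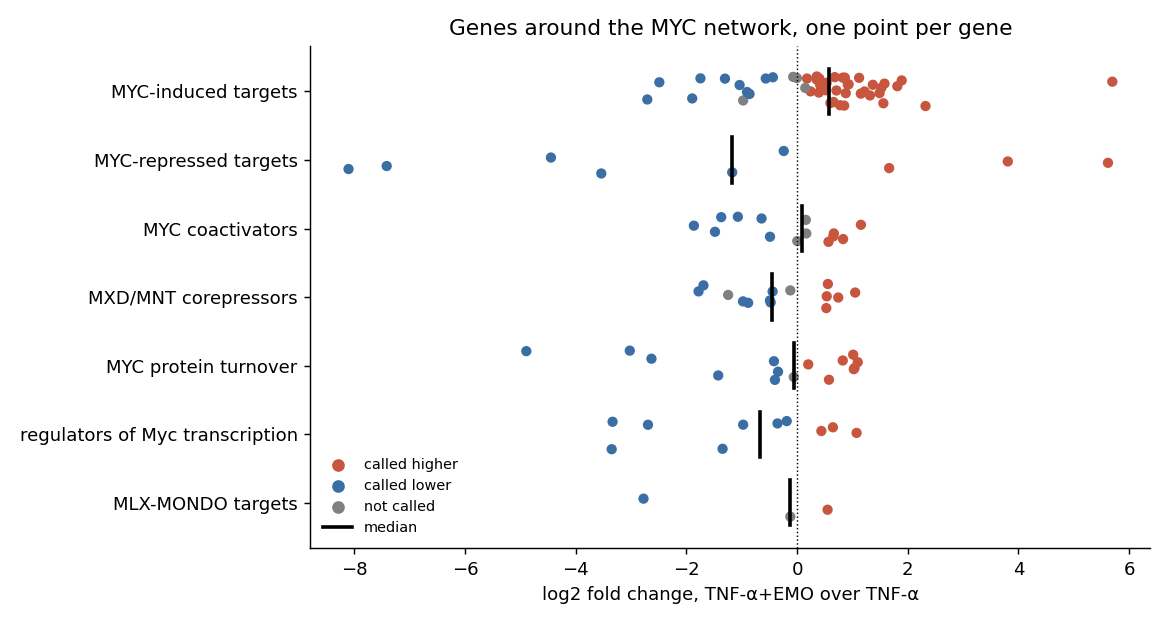
Log2 fold changes of the tested genes in 7 lists around the network, with the list median as a black line. MYC-induced targets lie mostly to the right of 0 (median 0.57), and MYC-repressed targets run from -8.10 to 5.62.

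Of the coactivators that MYC recruits, 14 were tested, 5 rose and 6 fell. The called share of 78.6% was close to the 80.9% of all genes, and the median log2 change was 0.081. The named decreases were in Trrap, the scaffold of histone acetyltransferase complexes, at -1.86 (SE 0.068), and the acetyltransferase Kat2a at -1.48. The named increases were in the ATPase Ruvbl2 at 1.15 (SE 0.093), the cyclin Ccnt2 of the elongation kinase P-TEFb at 0.83 and the acetyltransferase Kat5 at 0.66.

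The SIN3-HDAC corepressors used by MXD and MNT proteins had 14 genes tested, of which 5 rose and 7 fell. The called share was 85.7%, near the 80.9% of all genes, and the median log2 change was -0.46. Hdac1, the histone deacetylase, fell from 2672 ± 74.0 to 778 ± 22.2 normalized counts (log2 fold change -1.78, SE 0.062), and the SIN3 complex subunits Ing1 and Arid4a were lower at -1.69 and -0.98. Sin3b, one of the scaffolds that MXD proteins bind, rose by 1.05 (SE 0.11), and the subunits Suds3 and Ing2 rose by 0.74 and 0.56. The scaffold paralogs thus differed, since Sin3a, which was outside the naming rule, had a log2 change of -0.44 (SE 0.080, edgeR adjusted p = 0.00038).

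Regulators of MYC protein turnover showed 7 rises and 7 falls among 15 tested, or 93.3% called against 80.9% of all genes, of which 39.4% rose and 41.4% fell. The median log2 change was -0.059. The list was not split by whether a gene protects MYC or promotes its loss, so the counts and median give no direction. Cip2a, an inhibitor of PP2A that protects MYC from degradation, was lower at -4.89 (SE 0.31), as were the mitotic kinase Aurka at -3.02 and the F-box protein Skp2 at -2.63. The nucleolar deubiquitinase Usp36 rose by 1.04 (SE 0.067) and the PP2A subunit Ppp2r5a by 1.03 (SE 0.095). MYC protein itself was not measured.

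Of 10 regulators of Myc transcription tested, 3 rose and 7 fell, so that all were called against 80.9% of all genes, with a median of -0.66. The receptor Notch1 was lower at -3.35 (SE 0.13), as were the WNT effectors Lef1 at -3.33 and Tcf7l2 at -2.69. Cnbp, which binds a G-rich element upstream of Myc, rose by 1.08 (SE 0.052), and Puf60 and Fubp1, which act on a distant upstream element of Myc, rose by 0.65 and 0.44. Over all lists, counting each gene once, 57 of 116 tested genes rose and 46 fell, or 88.8% called against 80.9% of all genes.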

How the data were processed

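RNA from 6 libraries of rat RA-FLS was sequenced, 3 per group as the treatment labels give them. Per the labels and the study's methods, the authors had poly(A)-selected paired-end libraries sequenced, the reads cleaned (FastQC and Trimmomatic in the processing notes) and aligned to Rnor_6.0 with HISAT2. The counting program, its strand setting and the annotation release are not given in the sources used here. The authors deposited raw counts per gene, FPKM per library and their own comparison columns (group means, log2 fold changes and p-values), which were not used.

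The count table was fitted with edgeR 4.0.16 in R 4.3.3 (TMM scaling, robust quasi-likelihood F test, no covariate) on genes reaching 10 counts in 3 or more libraries, and p-values were adjusted by Benjamini and Hochberg across all 13614 of them. The methods name DEseq, and DESeq2 1.42.0 was an alternative. Normalized counts are scaled to the mean effective library size. The standard error is the size of the log2 fold change divided by the square root of F. Scripts were tested on simulated data. Levels per length used the gene lengths and, as an alternative added after seeing the data, the deposited FPKM. With 3 against 3 libraries an exact permutation test cannot give a p below 0.1, so adjusted p-values rest on spread shared across genes. At 16813322 to 17794455 counts per library, a count of 0 allows up to 3 counts. Such limits cover counting error only.

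The members and gene lists were chosen with earlier results of these data known. All members and those of the remaining network genes that were analysed were named. From each other list the rule named the 3 called genes that rose most and the 3 that fell most, provided their mean reached 100 counts and the groups did not overlap, plus Odc1, Cad, Ncl, Npm1, Cdk4, Ccnd2, Cdkn1a, Txnip and Arrdc4. Of the genes so named, 2 are not reported here. Of the 124 genes in the lists around the network, 5 were not analysed here. Alternatives were other scalings, filters and thresholds, DESeq2, a replicate block and leaving out each library.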

Additional observations from a re-analysis of the deposited data

How the results depend on the processing

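Direction and call held for Max, Mxd3 and Mlx under all 15 alternatives, with log2 fold changes of 1.36 to 1.50, 0.88 to 1.14 and 1.11 to 1.30. Myc (-0.81 to -0.65) and Mnt (0.67 to 0.87) kept theirs except where an absolute log2 fold change over 1 was required, since their values were -0.69 and 0.80. That threshold left 3 members higher, with Mxd3 at its margin, and 0 lower. It left 2659 of all genes higher and 3783 lower, and 23 higher and 28 lower in the lists around the network. With library totals alone, where the median of all genes was -0.12, Mxd1 turned to -0.016, and Mxd4 at -0.16 was called (adjusted p = 0.048 by edgeR), so 2 members were lower. The cause was not tested. Leaving out each library in turn gave -0.020 to 0.17 for Mxd1, -0.14 to 0.056 for Mxi1, -0.26 to 0.033 for Mga and -0.10 to 0.044 for Cad, none of which was called. Mycl ran from -6.71 to -4.15, with the lowest value without TNF-α+EMO replicate 3. Ccnd2 was below the filter in 4 fits, those without a TNF-α+EMO library and the filter of 50 counts. In DESeq2, 12 genes had no adjusted p and were left out of its counts. Shares and ratios per length were the same with library totals and with deposited FPKM, since scaling cancels within a library.

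Replicate numbers are shared by the groups in the labels. The deviations of same-numbered libraries from their group means correlated by -0.00683 to 0.0676, and TNF-α replicate 2 correlated best with another number, so the numbers were not taken as pairs. With the replicate number as a block, 5266 genes were higher and 5540 lower, against 5366 and 5642 without, and the counts of called members were again 4 higher and 1 lower, with Myc at -0.69 and Max at 1.47.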
